A study of Mus musculus with 8 samples.

Results

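The mitochondrial ribosomal protein genes, Mrpl and Mrps in the mouse, were followed in liver macrophages known as Kupffer cells, sorted 2 h after caecal ligation and puncture (CLP) or after a sham operation (Sham). A member was any row of the count table whose symbol begins with Mrpl or Mrps and a digit, without pseudogenes, and which held at least 1 count. The family was chosen by its name and by its CLP and Sham counts, with the CLP over Sham differences of these libraries known, so its fold changes and p-values are given as a description and support nothing by themselves. There were 77 such genes among 55414 rows of the table. A row for Mrpl53 stood at 0 in all 8 libraries and was left out. The member nearest to that limit, Mrps36, held 40, 14, 30 and 25 counts in CLP and 56, 57, 57 and 61 in Sham. All 77 members passed the filter on low counts.

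The study compared 4 CLP libraries with 4 Sham libraries, all from wild-type (WT) C57BL/6J mice. In CLP the gut leaks bacteria into the abdominal cavity, which makes it a model of sepsis. The series was set up around the rupture of red cells in sepsis. The labels give no age, sex or sorting gate. Nor do they tie the libraries to separate animals, and p-values therefore measure only the spread between these libraries, which may be technical. Libraries held 23311897 to 28724875 counts over genes, of which the members took 17399.5 ± 2551 in CLP and 31858 ± 2419 in Sham (SD, n = 4 each).

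Mitochondria keep a small genome of their own and translate its few messages, which encode core subunits of the respiratory chain, on a separate ribosome. The ribosomal RNAs of that ribosome come from mitochondrial DNA, but all of its proteins are encoded in the nucleus, made in the cytosol and imported. Many of them descend from bacterial ribosomal proteins, and others were added during the evolution of mitochondria. Activated macrophages are known for a shift of energy metabolism from respiration towards glycolysis.

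Of the 77 members, 62 had a negative log2 fold change, CLP over Sham, with TMM scaling, and 73 with total-count scaling. With TMM (a trimmed mean of log ratios between libraries), 37 members fell, 5 rose (Mrpl52, Mrps18b, Mrps28, Mrpl54 and Mrpl39) and 35 passed in neither direction (edgeR quasi-likelihood test, adjusted p under 0.05 over 14655 genes). The share that fell was 48.1%, against 29.5% of all genes tested, and the share that rose was 6.49%, against 24.9% of all genes. The median log2 fold change of the members was -0.34, beside -0.04 for all genes tested. A fall of at least 2-fold was seen in 10 members (13%) and in 15.9% of all genes: Mrps6, Mrpl44, Mrps35, Mrpl22, Mrpl49, Mrps26, Mrps27, Mrpl28, Mrpl2 and Mrps25.

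The count depends on how libraries are scaled. CLP libraries had TMM factors of 0.801 to 0.837 and Sham libraries of 1.16 to 1.28, and scaling by total counts alone moved the median of all genes by -0.55 on the log2 scale. With total counts, 67 members were lower (87.0%, against 56.6% of all genes), 1 was higher, Mrpl52 (all genes: 11.7%), and the median was -0.89, beside -0.60 for all genes. All 37 members that fell with TMM were also lower with total counts, and Mrpl52 was the one member higher under both. The member median lay 0.30 below that of all genes under either scaling. In 65 members all CLP libraries lay below all Sham libraries (all genes: 51.9%), and in 1 all lay above (all genes: 9.48%). A set of 11 members had a positive log2 fold change with TMM and a negative one with total counts.

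**Figure D1:**
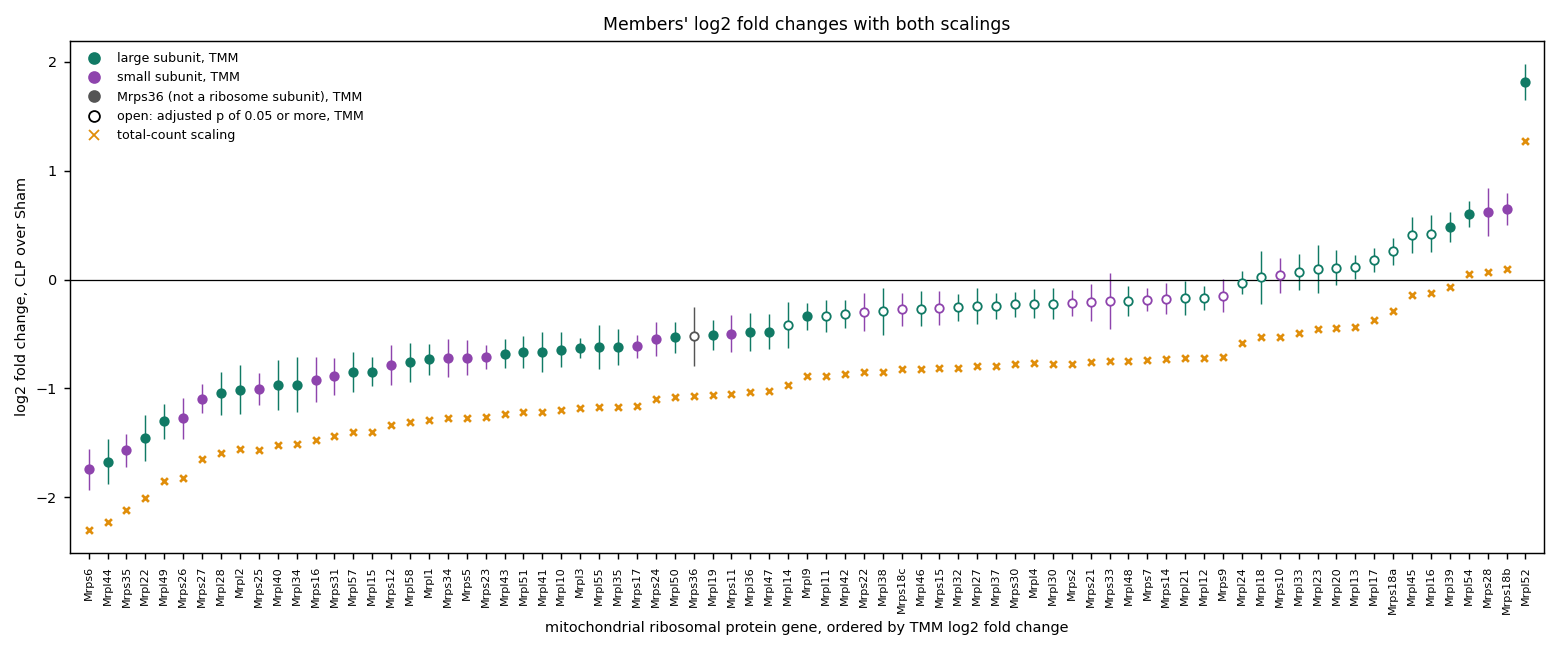
Log2 fold change, CLP over Sham, for each of the 77 members in order of size, as points with the SE (TMM scaling, coloured by subunit, open where the adjusted p is 0.05 or more) and as crosses (total-count scaling). Mrps6 lies lowest at -1.75, Mrpl52 highest at 1.82, and the crosses lie below the points throughout.

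Summed over all members, transcripts stood at 853, 749, 818 and 826 CPM (counts scaled to library size, here by TMM) in the CLP libraries, against 997, 1010, 948 and 1021 CPM in the Sham libraries. The groups did not overlap, at 812 ± 44.0 CPM in CLP libraries, against 994 ± 32.2 CPM in Sham libraries (SD, n = 4 each), a ratio of 0.817. With total-count scaling the sums were 670 ± 48.9 CPM in CLP libraries, against 1203 ± 43.6 CPM in Sham libraries, a ratio of 0.557. In bulk RNA, fewer cells of a type and less RNA per cell cannot be told apart. Counts of 1 gene family set against those of another in the same library do not depend on the scaling: for every 1000 counts of cytosolic ribosomal protein genes there were 69.9 ± 5.30 member counts in CLP and 110 ± 10.4 in Sham, with no overlap. For every 1000 counts of nuclear respiratory chain and ATP synthase genes the members held 236 ± 22.5 in CLP and 326 ± 20.8 in Sham, again with no overlap.

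**Figure D2:**
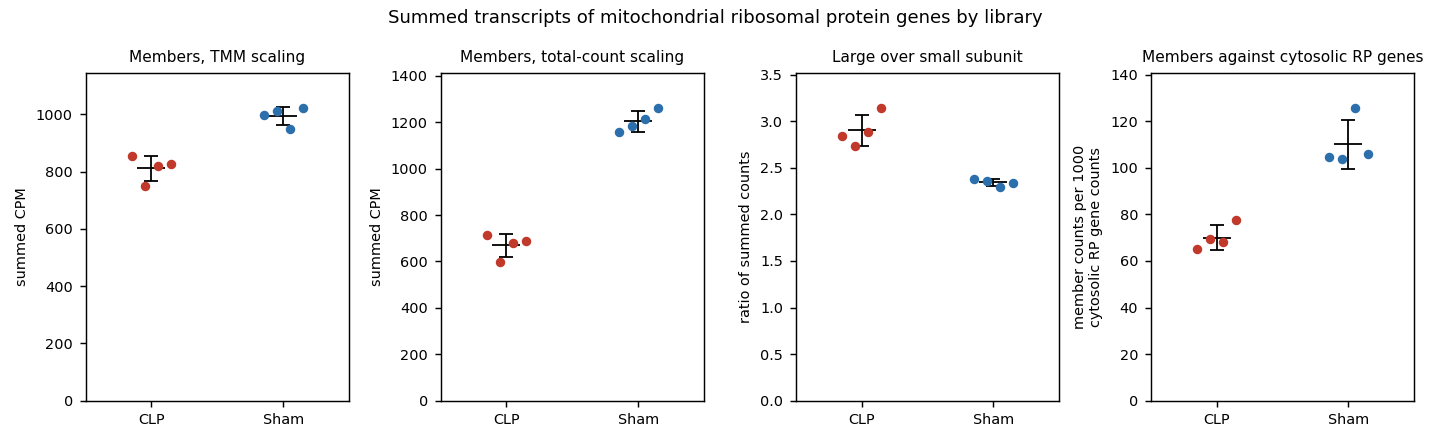
Summed member CPM under each scaling, the ratio of large to small subunit counts, and member counts per 1000 cytosolic ribosomal protein gene counts, with 1 point per library and the mean and SD (n = 4) as bars. CLP libraries lie below Sham libraries in the first, second and last panel and above them for the subunit ratio, 2.90 in CLP and 2.34 in Sham on average.

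By subunit, 14 of 26 small subunit genes fell and 2 rose (Mrps18b and Mrps28) with TMM, with a median log2 fold change of -0.52. Of all genes tested, 29.5% fell and 24.9% rose. Of 50 large subunit genes, 23 fell and 3 (Mrpl52, Mrpl54 and Mrpl39) rose, with a median of -0.33. With total counts, 24 of 26 small and 42 of 50 large subunit genes were lower (all genes: 56.6%). The small subunit sum was 208 ± 10.3 CPM in CLP libraries, against 297 ± 7.85 CPM in Sham libraries, a ratio of 0.70, and the large subunit sum was 602 ± 37.5 CPM in CLP libraries, against 695 ± 25.0 CPM in Sham libraries, a ratio of 0.867. Large over small subunit counts came to 2.84, 2.74, 2.89 and 3.14 in the CLP libraries, against 2.38, 2.36, 2.29 and 2.33 in the Sham libraries. Every CLP library lay above every Sham library in this ratio, which no scaling changes. Mrpl52 alone took 7.40 ± 0.922% of the member counts in CLP and 1.71 ± 0.367% in Sham. Without it the ratio was 2.61 ± 0.138 in CLP and 2.28 ± 0.0326 in Sham, and the groups still did not overlap.

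By origin, 21 of 46 members with a bacterial counterpart fell and 1 rose (Mrps28), and the median log2 fold change was -0.30. The shares over all genes tested were 29.5% and 24.9%. Of 30 members counted as mitochondria-specific, 16 fell and 4 (Mrpl52, Mrps18b, Mrpl54 and Mrpl39) rose, with a median of -0.60. That class includes Mrps18a and Mrps18b, which are related to bacterial S18. With total counts, 42 of the 46 and 24 of the 30 were lower (all genes: 56.6%). The 10 mitochondria-specific proteins of the small subunit, of which 7 fell, had a median of -0.80. For the 16 conserved proteins of the small subunit, of which 7 fell and 1 rose, the median was -0.27. The 20 mitochondria-specific proteins of the large subunit, of which 9 fell, had one of -0.30, beside -0.34 for its 30 conserved proteins. Sums by origin were ordered otherwise than the medians of -0.60 and -0.30. That of the mitochondria-specific members was 319 ± 19.1 CPM in CLP libraries, against 361 ± 15.1 CPM in Sham libraries (ratio 0.885). That of the conserved members was 491 ± 28.6 CPM in CLP libraries, against 631 ± 17.9 CPM in Sham libraries (ratio 0.778). The mitochondria-specific sum includes Mrpl52, at 59.9 ± 7.50 CPM in CLP libraries, against 17.0 ± 3.66 CPM in Sham libraries. The order of the sums rests on that gene. Mrps36, whose product is now known as a subunit of the oxoglutarate dehydrogenase complex and not of the ribosome, belongs to neither class. It did not pass, at -0.52 ± 0.27 on the log2 scale (edgeR adjusted p = 0.127).

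Among the falls, that of Mrps6 (ENSMUSG00000039680), a small subunit protein with a bacterial counterpart, was the largest. It stood at 8.16, 8.64, 7.05 and 5.41 CPM in the CLP libraries, against 19.4, 29.7, 21.8 and 27.3 CPM in the Sham libraries. All CLP libraries lay far below all Sham libraries, with a difference of -1.75 ± 0.19 on the log2 scale (value ± SE; edgeR adjusted p = 3.1e-05), or -2.30 with total counts. Mrpl44 (ENSMUSG00000026248), a mitochondria-specific protein of the large subunit with a ribonuclease-like fold, stood at 3.33, 4.08, 6.64 and 4.49 CPM in CLP libraries, against 14.2, 15.6, 12.6 and 16.7 CPM in Sham libraries. CLP replicate 3 was the highest of its group, and all CLP libraries lay below all Sham libraries, with a log2 fold change of -1.67 ± 0.21 (edgeR adjusted p = 8.2e-05).

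Mrps35 (ENSMUSG00000040112), specific to the mitochondrial small subunit, had the smallest p of the falls. Its values were 4.45, 3.72, 3.44 and 3.36 CPM in CLP libraries, against 11.2, 10.9, 10.5 and 12 CPM in Sham libraries, so that libraries of a group lay close together and the groups far apart (-1.57 ± 0.15 on the log2 scale, edgeR adjusted p = 1.6e-05). Mrpl22 (ENSMUSG00000020514), whose bacterial counterpart lines the tunnel through which the new protein leaves the ribosome, was at 2.66, 1.52, 2.43 and 2.54 CPM in CLP libraries, against 5.68, 6.06, 6.17 and 7.33 CPM in Sham libraries (-1.46 ± 0.21, edgeR adjusted p = 2.2e-04). CLP replicate 2 was the lowest library of Mrpl22. Mrpl49 (ENSMUSG00000007338), a large subunit protein of mitochondria, held 3.04, 3.14, 3.94 and 3.22 CPM in CLP libraries, against 8.04, 8.78, 7.24 and 8.86 CPM in Sham libraries (-1.30 ± 0.16, edgeR adjusted p = 8.1e-05). Mrps27 (ENSMUSG00000041632), an RNA-binding protein of the pentatricopeptide repeat family, was at 5.95, 5.71, 5.36 and 5.46 CPM in CLP libraries, against 11, 13, 11.1 and 12.9 CPM in Sham libraries (-1.09 ± 0.13, edgeR adjusted p = 6.7e-05). In these 6 genes the groups did not overlap, as in 40 members with CLP below Sham and 4 with CLP above it (all genes tested: 27.3% below and 22.1% above).

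Mrpl52 (ENSMUSG00000010406), a small mitochondria-specific protein of the large subunit, went against the family. It stood at 52.4, 55.1, 63.7 and 68.6 CPM in the CLP libraries, against 21.5, 18.1, 15.3 and 13 CPM in the Sham libraries. All CLP libraries lay above all Sham libraries, with a log2 fold change of 1.82 ± 0.16 (SE; edgeR adjusted p = 1.1e-05) and of 1.27 with total counts (edgeR adjusted p = 3.95e-05). Its log2 fold change stayed between 1.72 and 1.97 when any 1 library was left out.

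The other 4 rises were smaller, and none of them passed with total counts. Mrps18b (ENSMUSG00000024436), related to bacterial S18 but counted among the mitochondria-specific proteins, was at 10.9, 12, 12.4 and 10.3 CPM in CLP libraries, against 7.91, 7.74, 7.68 and 5.71 CPM in Sham libraries (0.65 ± 0.15 on the log2 scale, edgeR adjusted p = 0.0038, or 0.10 with total counts). Mrpl54 (ENSMUSG00000034932), specific to mitochondria, was at 18.9, 16, 17.7 and 16.4 CPM in CLP libraries, against 11.9, 12.3, 10.7 and 10.6 CPM in Sham libraries (0.60 ± 0.12, edgeR adjusted p = 0.0014, or 0.05 with total counts). In both genes the groups did not overlap with TMM. Mrpl39 (ENSMUSG00000022889), another large subunit protein of mitochondria, was at 13.1, 12.4, 12 and 15.2 CPM in CLP libraries, against 9.72, 9.39, 8.08 and 10.6 CPM in Sham libraries (0.48 ± 0.14, edgeR adjusted p = 0.0125), and its value turned to -0.07 with total counts. Mrps28 (ENSMUSG00000040269), a small subunit protein with a bacterial counterpart, was at 7.32, 7.38, 4.08 and 4.68 CPM in CLP libraries, against 4.09, 3.63, 3.55 and 3.97 CPM in Sham libraries. CLP replicates 1 and 2 lay well above the Sham libraries, and CLP replicate 3 lay within their range (0.62 ± 0.22, edgeR adjusted p = 0.0365, or 0.07 with total counts). The call of Mrps28 was lost when CLP replicate 1 or 2 or any 1 Sham library was left out, with log2 fold changes of 0.49 to 0.68 and adjusted p of 0.053 to 0.108.

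Of 3 relatives of bacterial S18, set side by side after their values were seen, Mrps18b rose and 2 did not pass. Beside Mrps18b, Mrps18a of the large subunit had a log2 fold change of 0.26 ± 0.12 (edgeR adjusted p = 0.103) and Mrps18c of the small subunit one of -0.27 ± 0.15 (edgeR adjusted p = 0.153). The difference between the paralogues was not tested.

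**Figure D3:**
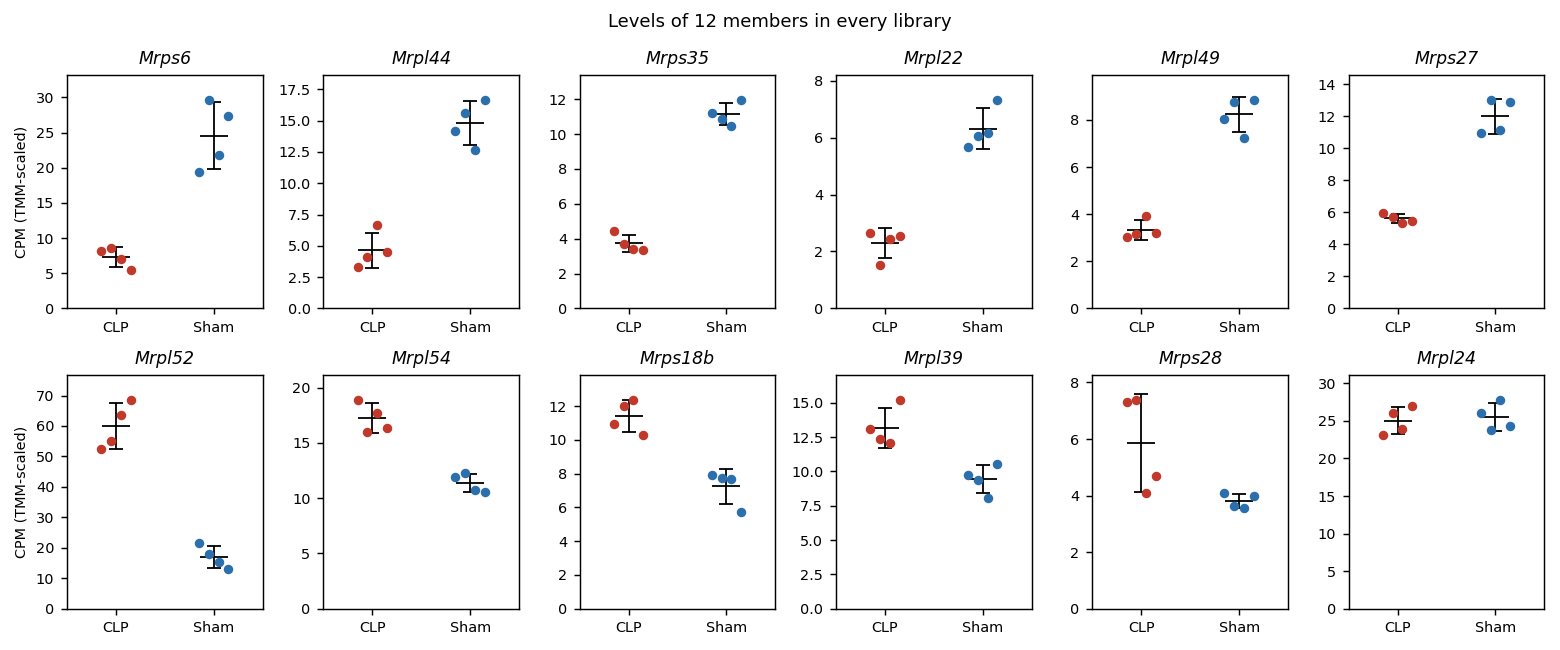
CPM (TMM-scaled, axis from 0) of 12 members in each library, with the mean and SD (n = 4) as bars: the 6 falls with the smallest p in the upper row, and the 5 rises and Mrpl24 in the lower row. The groups separate in every panel but those of Mrps28 and Mrpl24, and with total counts Mrpl39 turns to -0.07 on the log2 scale.

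Known regulators of this family bind close to the start of transcription, among them nuclear respiratory factor 1 (NRF1), the ETS family factor GABP and YY1. The sequences of 5 members that fell or rose are shown so that a reader can see which of these letters lie there. Each line gives the 250 bases before the RefSeq transcript start (assembly GRCm38.p6), 5′ to 3′ on the strand of the gene, and capitals mark matches to the letters searched: the consensus of NRF1, ETS as CCGGAAG, YY1 as AAGATGGC and the GC box of SP factors as GGGCGG, each on both strands. Mrps6 (chr16:92058086-92058335, plus strand), Mrpl44 (chr1:79775768-79776017, plus strand) and Mrpl22 (chr11:58171414-58171663, plus strand) fell. Mrpl52 (chr14:54426659-54426908, plus strand) and Mrpl39 (chr16:84735245-84735494, minus strand) rose.
Mrps6: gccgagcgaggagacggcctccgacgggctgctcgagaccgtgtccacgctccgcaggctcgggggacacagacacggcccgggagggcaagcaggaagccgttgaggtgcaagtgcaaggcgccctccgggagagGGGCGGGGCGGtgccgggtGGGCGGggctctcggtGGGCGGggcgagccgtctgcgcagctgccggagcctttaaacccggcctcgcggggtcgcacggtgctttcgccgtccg
Mrpl44: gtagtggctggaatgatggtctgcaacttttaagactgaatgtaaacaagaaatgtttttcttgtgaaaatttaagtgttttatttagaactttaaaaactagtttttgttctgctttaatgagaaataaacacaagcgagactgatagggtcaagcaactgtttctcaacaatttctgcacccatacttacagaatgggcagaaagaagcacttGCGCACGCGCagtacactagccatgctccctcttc
Mrpl22: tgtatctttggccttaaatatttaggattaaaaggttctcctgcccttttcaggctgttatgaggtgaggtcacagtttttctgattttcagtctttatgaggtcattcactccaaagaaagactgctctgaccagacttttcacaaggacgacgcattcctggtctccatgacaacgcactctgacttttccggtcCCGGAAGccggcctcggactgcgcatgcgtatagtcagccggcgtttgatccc
Mrpl52: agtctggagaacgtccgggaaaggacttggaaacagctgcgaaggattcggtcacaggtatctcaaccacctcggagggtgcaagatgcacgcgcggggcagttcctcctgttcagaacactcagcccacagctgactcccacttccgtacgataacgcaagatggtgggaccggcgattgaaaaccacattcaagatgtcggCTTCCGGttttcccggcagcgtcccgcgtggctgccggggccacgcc
Mrpl39: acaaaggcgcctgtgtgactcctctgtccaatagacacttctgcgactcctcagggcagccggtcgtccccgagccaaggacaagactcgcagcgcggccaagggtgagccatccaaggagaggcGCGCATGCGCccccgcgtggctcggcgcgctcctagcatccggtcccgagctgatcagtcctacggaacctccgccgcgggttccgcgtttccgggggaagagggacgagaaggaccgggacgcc

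The Mrps6 stretch held 4 GC boxes, of which the 2 farthest from the start share a base, and no NRF1, ETS or YY1 letters. Mrpl44 held an NRF1 match that begins 35 bases before the start and Mrpl39 one that begins 125 bases before it. Mrpl22 held an ETS match beginning 53 bases before the start and Mrpl52 one beginning 47 bases before it. With TMM, NRF1 letters and ETS letters each stood in a gene that fell and in a gene that rose. Mrpl39 did not pass with total counts, at -0.07 on the log2 scale. The printed sequences are a selection.

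Over the whole family, 68 of 77 members had a RefSeq promoter, of which windows of 300 bases were searched, from 250 before to 50 after the start. NRF1 letters were in 19.1% of member promoters and 4.78% of all 27025 promoters of the table, ETS letters in 35.3% and 9.12%, and YY1 letters in 17.6% and 2.88%. The GC box was in 34 of 68 member promoters and 35.9% of all, the CCAAT box (CCAAT) in 38.2% and 37.9%, and the E-box (CACGTG) in 7.35% and 7.24%. The consensus of NF-kB was in 0 of 68 member promoters and in 0.385% of all. The 13 members with NRF1 letters had a median log2 fold change of -0.22 and the 55 without -0.50. For ETS letters the medians were -0.46 with (24) and -0.38 without (44), and for YY1 letters -0.49 with (12) and -0.34 without (56). These are descriptions with no test, and a match is not a binding site.

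Among genes that encode these factors, Gabpb1, a partner subunit of GABP, was at 49.4, 54.6, 44.2 and 52.1 CPM in CLP libraries, against 24.5, 20.8, 18.5 and 21.9 CPM in Sham libraries (1.22 ± 0.12 on the log2 scale, edgeR adjusted p = 1.6e-05), whereas Gabpb2, its paralogue, fell by 0.88 ± 0.10 on the log2 scale (edgeR adjusted p = 4.1e-05). The factor genes Nrf1, Gabpa and Yy1 did not pass, with log2 fold changes of 0.32 ± 0.18, 0.11 ± 0.10 and 0.03 ± 0.11. Of 15 regulators of mitochondrial biogenesis in all, 3 rose and 5 fell with TMM (all genes: 24.9% and 29.5%), and 3 were higher and 10 lower with total counts (all genes: 11.7% and 56.6%). Of the coactivators, Pprc1 rose by 1.23 ± 0.22 (edgeR adjusted p = 9.4e-04) and Ppargc1b fell by 1.65 ± 0.22 (edgeR adjusted p = 1.5e-04). Nfe2l2, the oxidative stress factor NRF2, was the third that rose, and Esrra, Tfam and Creb1 also fell. Creb1 was at 55.7 ± 4.83 CPM in CLP libraries, against 106 ± 3.64 CPM in Sham libraries (-0.93 ± 0.10, edgeR adjusted p = 2.8e-05).

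Levels are compared between members per kilobase of the longest protein-coding transcript, and the order depends on the length used. Mrpl52 had the highest level over all libraries, 129 ± 16.2 CPM per kb in CLP and 36.7 ± 7.91 in Sham. In Sham it lay below Mrpl42, specific to mitochondria, at 33.3 ± 5.86 CPM per kb in CLP and 41.6 ± 2.40 in Sham, and their ranges of mean and SD overlap. Mrpl33 and Mrps21, small proteins with bacterial counterparts, were at 31.5 ± 4.57 and 22.5 ± 5.07 CPM per kb in CLP and at 30.1 ± 6.10 and 26.04 ± 3.24 in Sham. The lowest per transcript were the small subunit genes Mrps26, at 0.633 ± 0.102 CPM per kb in CLP and 1.53 ± 0.195 in Sham, and Mrps25, at 0.861 ± 0.0627 in CLP and 1.73 ± 0.217 in Sham. Both of these low genes fell, with log2 fold changes of -1.27 ± 0.19 and -1.01 ± 0.15 (edgeR adjusted p = 2.5e-04 and 2.3e-04), and Mrpl42, Mrpl33 and Mrps21 did not pass. Per kilobase of all annotated exons of a gene, Mrpl52 stayed highest, at 54.0 CPM per kb in CLP and 15.3 in Sham, but Mrpl33 was at 2.06 in CLP and 1.96 in Sham and Mrpl42 at 6.03 in CLP and 7.52 in Sham. On that length the lowest members were Mrpl23, at 0.574 in CLP and 0.536 in Sham, and Mrps35, at 0.434 in CLP and 1.29 in Sham. Across the 77 members, log2 fold change and mean CPM had a Spearman rho of 0.328, against 0.235 across all genes tested with a symbol. Genes share libraries and are not independent, so this is a description.

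Variants in human orthologues of several members are known to cause combined defects of the respiratory chain. Of 12 such genes, a selection that is not complete, 5 fell in CLP (Mrpl44, Mrps16, Mrps23, Mrps34 and Mrpl3), 1 rose (Mrps28) and 6 did not pass. Of all members 48.1% fell and 6.49% rose, and of all genes tested 29.5% and 24.9%. Mrpl3 held the most counts of any member over all 8 libraries, though fewer than Mrpl52 in every CLP library. It was at 31.3, 28.2, 30.004 and 30.4 CPM in CLP libraries, against 42.0, 49.6, 46.1 and 48.0 CPM in Sham libraries (-0.63 ± 0.10, edgeR adjusted p = 2.8e-04). Mrps23 was at 12.3, 11.6, 11.8 and 12.6 CPM in CLP libraries, against 19.9, 20.9, 17.5 and 21.0 CPM in Sham libraries (-0.71 ± 0.11, edgeR adjusted p = 3.3e-04). Both genes kept the groups apart with little spread within a group. Mrps16 and Mrps34 had log2 fold changes of -0.92 ± 0.21 and -0.72 ± 0.17 (edgeR adjusted p = 0.0035 and 0.0050). Mrpl24 had the value nearest 0 of the list, at 25.0 ± 1.81 CPM in CLP libraries, against 25.5 ± 1.81 CPM in Sham libraries (-0.03 ± 0.10, edgeR adjusted p = 0.831), and its sign changed with the setting. Mrpl12, Mrps2, Mrps7, Mrps14 and Mrps22 lay between -0.17 and -0.30 and did not pass with TMM. With total counts, 11 of the 12 were lower, the exception being Mrps28, beside 87.0% of all members and 56.6% of all genes.

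The 35 members that did not pass with TMM had log2 fold changes from -0.52 to 0.42. Nearest to the threshold on that side were Mrpl16 (0.42 ± 0.17, edgeR adjusted p = 0.057), Mrpl45 (0.41 ± 0.17, 0.061), Mrpl42 (-0.32 ± 0.13, 0.063) and the stalk protein gene Mrpl11 (-0.33 ± 0.14, 0.072). Just inside it were Mrps28 (0.62 ± 0.22, edgeR adjusted p = 0.0365), Mrpl36 (-0.48 ± 0.17, 0.036), Mrpl9 (-0.34 ± 0.12, 0.0355) and Mrps11 (-0.50 ± 0.17, 0.028). The calls of Mrpl36, Mrpl9 and Mrps11 were each lost when 1 of several libraries was left out, with adjusted p up to 0.101, 0.128 and 0.079. Mrpl16 and Mrpl45 turned negative with total counts, at -0.13 and -0.14.

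Libraries of a group differed in the family as a whole. CLP replicate 1 held the highest CLP value in 37 of 77 members (48.1%, against 36.5% of all genes tested), and CLP replicate 2 the lowest in 33 (all genes: 19.8%). Sham replicate 4 held the highest Sham value in 30 members (39.0%, against 21.2% of all genes), and Sham replicate 3 the lowest in 35 (all genes: 31.4%). Without CLP replicate 1, 45 members were lower and 5 higher. The median coefficient of variation of a member was 15.4% among CLP libraries and 9.57% among Sham libraries. Mrpl18 varied most, at 11.4, 11.4, 19.1 and 25.6 CPM in CLP libraries, against 16.8, 15.7, 15.4 and 18.5 CPM in Sham libraries. CLP replicates 1 and 2 of Mrpl18 lay below the Sham range and replicates 3 and 4 above it, and the gene did not pass (0.02 ± 0.24, edgeR adjusted p = 0.952).

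Some members overlap or adjoin other genes, and the strand setting of the count is not given in the sources used here. In the GENCODE M21 annotation, exons of 28 members overlap those of another gene with counts, 24 of them on the opposite strand only. Among the 49 without such overlap, 21 fell and 4 rose (all genes: 29.5% and 24.9%), and their median was -0.30 on the log2 scale. Mmp14, the membrane-bound matrix metalloproteinase that is the next gene downstream of Mrpl52 on the same strand, was at 378, 567, 773 and 614 CPM in CLP libraries, against 99.2, 45.1, 23.2 and 21.0 CPM in Sham libraries (3.63 ± 0.49, edgeR adjusted p = 1.4e-04). Both genes had the same order over the Sham libraries, highest in replicate 1 and lowest in replicate 4. Among the CLP libraries both were lowest in replicate 1, and Mmp14 was highest in replicate 3 and Mrpl52 in replicate 4. Slc5a3, the inositol transporter whose exons overlap those of Mrps6 on the same strand, was at 22.6, 26.6, 24.9 and 20.04 CPM in CLP libraries, against 94.7, 153, 116 and 173 CPM in Sham libraries (-2.51 ± 0.19, edgeR adjusted p = 5.2e-06). The part of these neighbours in the values of Mrpl52 and Mrps6 was not tested. Processed pseudogenes at least 95% identical over 200 bases exist for 18 members, and together they held 138 counts, against 197031 for the members. Mrps26 also shares stretches of that length and identity with many genes that are not pseudogenes. Some of these held many counts, such as Arhgef2 with 54482. Their part in the values of Mrps26 was not tested.

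**Figure D4:**
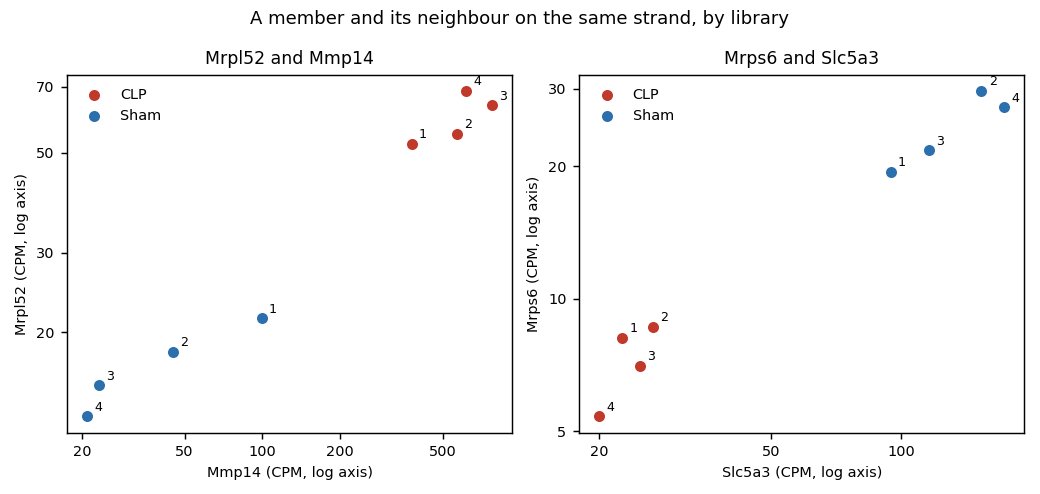
CPM of Mrpl52 against Mmp14 (left) and of Mrps6 against Slc5a3 (right), on log axes, with 1 point per library and its replicate number. CLP libraries lie above and to the right of Sham libraries for Mrpl52 and Mmp14, and below and to the left of them for Mrps6 and Slc5a3.

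Many other genes of mitochondrial translation fell too. Of 5 subunits that carry other names, 2 fell, Gadd45gip1 (-0.60 ± 0.16, edgeR adjusted p = 0.0094) and Ptcd3 (-0.38 ± 0.12, edgeR adjusted p = 0.022), and Dap3, Chchd1 and Aurkaip1 did not pass. Of 13 translation factors, 10 fell and 0 rose (all genes: 29.5% and 24.9%), and their median was -0.96 on the log2 scale. Mtif2, the initiation factor that brings the first tRNA, was at 7.24, 5.39, 6.96 and 6.39 CPM in CLP libraries, against 16.4, 18.0, 18.2 and 18.6 CPM in Sham libraries (-1.45 ± 0.13, edgeR adjusted p = 1.3e-05). The release factor gene Mtrf1 was at 1.29, 0.943, 0.962 and 1.22 CPM in CLP libraries, against 5.26, 6.00, 3.52 and 5.77 CPM in Sham libraries (-2.21 ± 0.24, edgeR adjusted p = 3.7e-05). Both genes lay lower in every CLP library than in any Sham library.

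Of 22 mitochondrial tRNA synthetase and amidation genes, 15 fell and 0 rose (median -0.84), where 29.5% of all genes fell and 24.9% rose. Pars2, which charges the proline tRNA, was at 0.343 ± 0.164 CPM in CLP libraries, against 3.08 ± 0.510 CPM in Sham libraries (-3.13 ± 0.34, edgeR adjusted p = 3.4e-05), and Tars2, for threonine, at 8.60 ± 0.575 CPM in CLP libraries, against 20.9 ± 2.35 CPM in Sham libraries (-1.28 ± 0.13, edgeR adjusted p = 1.8e-05). Of 34 genes of ribosome assembly and ribosomal RNA modification, 18 fell and 0 rose (median -0.58), among them the RNA methyltransferase gene Mrm1 (-1.71 ± 0.16, edgeR adjusted p = 1.3e-05) and Ybey (-2.15 ± 0.23, edgeR adjusted p = 3.0e-05). With total counts the lower counts were 12 of 13, 22 of 22 and 29 of 34, where 56.6% of all genes tested were lower.

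Of 18 genes of transcription and RNA handling in mitochondria, 9 fell and 2, Mtpap and Supv3l1, rose with TMM (median -0.23, all genes: 29.5% and 24.9%). With total counts 14 were lower and 0 higher (all genes: 56.6% and 11.7%). Polrmt, the RNA polymerase of mitochondria, was at 2.71, 2.72, 3.16 and 2.97 CPM in CLP libraries, against 14.8, 15.8, 16.6 and 15.1 CPM in Sham libraries (-2.43 ± 0.13, edgeR adjusted p = 1.2e-06). Fastkd1, an RNA-binding protein, fell by 1.40 ± 0.18 (edgeR adjusted p = 9.4e-05). The ribosomal RNAs of mitochondrial DNA, mt-Rnr1 and mt-Rnr2, did not pass (0.27 ± 0.23 and 0.44 ± 0.21, or -0.28 and -0.11 with total counts). Of its messages, 7 had enough counts to test, of which mt-Nd1, mt-Co1 and mt-Cytb rose and 0 fell with TMM. mt-Cytb was at 1263 ± 291 CPM in CLP libraries, against 895 ± 85.7 CPM in Sham libraries (0.50 ± 0.17, edgeR adjusted p = 0.027, or -0.06 with total counts), and mt-Nd1 at 604 ± 179 CPM in CLP libraries, against 400.2 ± 56.0 CPM in Sham libraries (0.59 ± 0.21, edgeR adjusted p = 0.032, or 0.04 with total counts).

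Of 29 genes of protein import into mitochondria, 6 were higher and 4 lower (Timm21, Timm22, Hspe1 and Mipep) with TMM (all genes: 24.9% and 29.5%), and 2 were higher and 21 lower with total counts (all genes: 11.7% and 56.6%). The chaperone gene Hspa9 was at 239 ± 13.8 CPM in CLP libraries, against 133 ± 8.68 CPM in Sham libraries (0.85 ± 0.10, edgeR adjusted p = 5.8e-05), and Pmpca, a subunit of the protease that trims imported proteins, at 80.0 ± 1.61 CPM in CLP libraries, against 46.3 ± 2.93 CPM in Sham libraries (0.79 ± 0.09, edgeR adjusted p = 4.3e-05). These were the 2 that were higher with total counts. Of 79 nuclear respiratory chain and ATP synthase genes 7 rose and 3 (Ndufs3, Atp5s and Ndufv3) fell (median 0.07; with total counts 0 and 55, median -0.48). Of 81 cytosolic ribosomal protein genes 43 rose and 0 fell (median 0.34; with total counts 1, Rpl24, was higher and 12 were lower, median -0.21). The difference between the families was not tested.

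**Figure D5:**
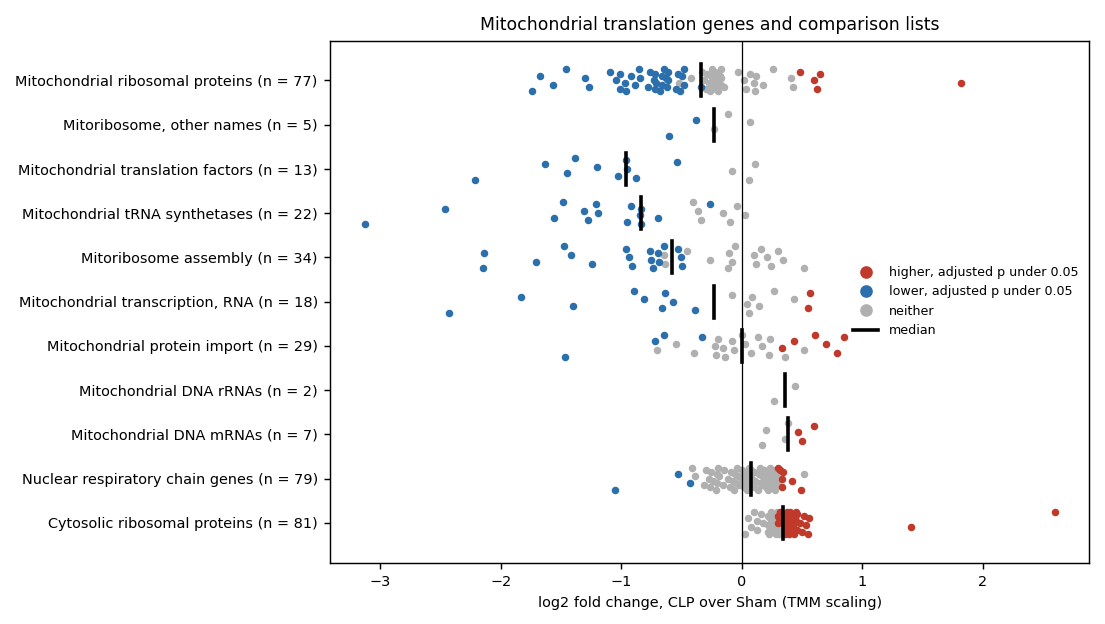
Log2 fold changes, CLP over Sham (TMM scaling), of the tested genes of each list, with the median as a bar and points coloured by call. The median of the mitochondrial ribosomal proteins (-0.34) lies between those of the translation factors (-0.96) and the cytosolic ribosomal proteins (0.34, or -0.21 with total counts).

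The libraries carried the markers of the labelled cells. Sums and calls are with TMM unless stated. All 12 Kupffer cell markers were detected, with sums of 35305 to 46122 CPM in CLP libraries, against 27151 to 35062 CPM in Sham libraries, and 4 were higher. Of all genes tested, 24.9% were higher and 29.5% lower. Markers of some other cells moved with the groups. Of 11 neutrophil markers, 7 were testable and all 7 rose, with sums of 52.02 to 241 CPM in CLP libraries, against 2.57 to 6.36 CPM in Sham libraries. In that list Ly6g and Camp were at 0 in Sham, while Elane was at 0 in CLP. Platelet markers (5 of 6 testable, 5 higher) summed to 118 to 192 CPM in CLP libraries, against 15.2 to 27.8 CPM in Sham libraries, and Gp1bb was at 0 throughout. B cell markers (6 of 6 testable, 5 higher and 1 lower) summed to 19.3 to 30.8 CPM in CLP libraries, against 8.58 to 13.9 CPM in Sham libraries. Hepatocyte markers (10 of 10 testable, 1 higher) summed to 2712 to 3692 CPM in CLP libraries, against 1954 to 2849 CPM in Sham libraries, and endothelial markers (9 of 9, 5 higher) to 499 to 555 CPM in CLP libraries, against 434 to 488 CPM in Sham libraries. Monocyte markers (4 of 6 testable, 1 higher) summed to 205 to 344 CPM in CLP libraries, against 158 to 264 CPM in Sham libraries. Hepatocyte, monocyte and erythroid sums overlapped between the groups. Stellate cell markers (6 of 6 testable, 2 higher) summed to 44.2 to 64.1 CPM in CLP libraries, against 33.8 to 42.1 CPM in Sham libraries. Erythroid markers (2 of 6 testable, 2 higher) summed to 8.20 to 15.0 CPM in CLP libraries, against 3.52 to 9.26 CPM in Sham libraries. With total counts no stellate or erythroid marker passed. With total counts, 0 Kupffer, hepatocyte and endothelial markers were higher, and 3, 4 and 2 of them were lower, with ratios of the sums, CLP over Sham, of 0.838, 0.886 and 0.769. The neutrophil, platelet and B cell calls were as many with total counts as with TMM. None of 8 T and NK cell markers reached the count filter. The part of these cells in the members' values was not tested.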

How the data were processed

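RNA of sorted Kupffer cells was sequenced in 4 CLP and 4 Sham libraries, grouped by their titles. Libraries were made with a stranded kit, per the labels' protocols. The deposited table holds raw read counts of 55414 Ensembl genes, made by the authors with STAR 2.7.10b and featureCounts on mm39, with FastQC and DESeq2 also listed, per the submitters' processing notes. The sources used here give neither the annotation release nor the strand setting.

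Symbols came from GENCODE M21 (52081 IDs, 99.8% of counts) on the older assembly GRCm38, as did exon overlaps and lengths, and promoters from RefSeq (GRCm38.p6). After filterByExpr and TMM scaling, genes were tested in edgeR 4.0.16 (R 4.3.3; robust quasi-likelihood F-test, surgery as the only term), with Benjamini-Hochberg adjustment over 14655 genes. The SE is the absolute log2 fold change over the square root of F, and CPM are TMM-scaled unless stated. Libraries of 23311897 to 28724875 counts gave members 340 counts or more in all.

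The members and lists were chosen with earlier results of these data known. Named genes are the 6 rises and 6 falls of smallest p (5 rises exist), the 4 highest and 2 lowest levels per length of the longest protein-coding transcript, the human disease list, members passing in opposite directions under both scalings (0), the 4 on each side of the threshold and the 2 smallest p of each other list. Other genes with values were chosen after their values were seen. Alternatives were total counts, RLE and upper-quartile factors, DESeq2 1.42.0, limma voom 3.58.1, other filters, GC offsets, a replicate block and leaving out each library. Total counts with a library left out, and members without exon overlap, were added after the data were seen. In simulated counts with 50 genes planted at each fold, 13 were recovered at 1.5-fold, 28 at 2-fold, 47 at 4-fold and 48 at 8-fold, with 11 false among 147 calls over 14655 genes. The data differ from this setting: 3644 genes were called higher and 4319 lower with TMM, and the simulation planted no difference in scaling between groups. Its recovery and false calls therefore do not carry over to the calls given here.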

Additional observations from a re-analysis of the deposited data

Results flagged for a closer look

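In 8 of 162 gene and group combinations examined, the extreme library lay far from the other 3 of its group by Dixon's test at the 95% level. Chance gives about 1 in 20 such groups, which is near what was seen. In CLP replicate 1, Mrpl10 stood at 20.3 CPM, Mrpl2 at 9.74 CPM and Mrpl36 at 15.0 CPM, each far above the other CLP libraries. CLP replicate 4 held 3.71 CPM of Mrpl23, above the other CLP libraries. Sham replicate 4 held 16.1 CPM of Mrpl51 and 13.4 CPM of Mrps5, above the other Sham libraries, and 5.71 CPM of Mrps18b, below them. Sham replicate 2 held 11.9 CPM of Mrps34, above the other Sham libraries.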

How the results depend on the processing

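With total-count scaling, 67 members were lower and 1 higher, the median log2 fold change was -0.89 and the ratio of summed CPM 0.557. DESeq2 called 8 members higher, and 3 were higher without a low-count filter. The other alternatives gave 4 to 7 higher and 35 to 46 lower. Leaving out 1 library gave 4 to 6 higher and 31 to 45 lower, with medians from -0.44 to -0.30, and 63 to 68 lower with total counts. Deviations of same-numbered CLP and Sham libraries had correlations of 0.172, -0.125, 0.126 and -0.085. Those of differently numbered libraries ran from -0.408 to 0.335, so these values cannot show whether the numbers pair libraries. With the replicate block, 35 members were lower and 4 higher, with a median of -0.34.

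Of 576 values for 32 named members, 498 kept direction and side of the threshold, 39 lost their call, 28 gained one and 11 changed sign. With total counts the sign changed for Mrpl39 (-0.071), Mrpl33 (-0.49), Mrpl16 (-0.13) and Mrpl45 (-0.14). Mrpl33 was also at -0.038 with upper-quartile factors, and between -0.0080 and 0.204 when 1 library was left out. Mrpl24 was at 0.032 with RLE factors and at 0.032 with DESeq2, and between -0.060 and 0.015 when 1 library was left out. The cause was not tested. Low counts, the unknown strand setting and 4 libraries per group limit these values, and a p that misses the threshold does not show that a member was unchanged.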

Other observations

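Other members had a changed gene beside them, named after their values were seen. The genes named are a selection, and some neighbours that moved otherwise than their member are given as well. Tpd52, on the same strand as Mrps28, was at 387 ± 85.0 CPM in CLP libraries, against 139 ± 17.3 CPM in Sham libraries, with a log2 fold change of 1.48 ± 0.17 (edgeR adjusted p = 4.4e-05). Ppp1r10, next to Mrps18b on the opposite strand, was at 195 ± 22.3 CPM in CLP libraries, against 91.1 ± 9.33 CPM in Sham libraries (1.10 ± 0.12, edgeR adjusted p = 3.8e-05). Nr2c2, a nuclear receptor gene whose exons cover 69.8% of those of Mrps25 on the opposite strand, was at 28.7 ± 2.51 CPM in CLP libraries, against 89.5 ± 10.7 CPM in Sham libraries (-1.64 ± 0.12, edgeR adjusted p = 4.0e-06). Mapk8ip3, whose exons cover 63.4% of those of Mrps34 on the opposite strand, did not pass (0.22 ± 0.27, edgeR adjusted p = 0.517), while Mrps34 fell. Wdfy1 and Syvn1, whose exons overlap those of Mrpl44 and Mrpl49, did not pass either, at 0.14 ± 0.25 and -0.12 ± 0.12, while both members fell. Tmem63b, overlapping Mrpl14, rose by 1.03 ± 0.15, with Mrpl14 at -0.42. Ighmbp2, overlapping Mrpl21, fell by 1.61 ± 0.16, with Mrpl21 at -0.17, and neither member passed. Mrpl53, at 0 in all libraries, shares 88.0% of its exons with Gm42688, which held 302 counts. The part of these genes in the members' values was not tested.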
